A study of Mus musculus with 9 samples.

Results

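The genes described here encode parts of the epithelial cell's skeleton and contacts, and 2 regulators of the epithelial state. They are the simple keratins Krt7, Krt8, Krt18 and Krt19, the junction and adhesion genes Cldn7, Ocln, Cdh1 and Epcam, the splicing regulator Esrp1 and the transcription factor Ovol1. They were chosen by gene name from the deposited count table, so all 10 of the 10 listed names were found among its 49671 genes. The cells were of the Panc02 line, which derives from a pancreatic ductal adenocarcinoma of the mouse. They were cultured with serum and no treatment, and their poly(A) RNA was sequenced in bulk. The 9 libraries formed 3 groups of 3. The parental group is the unedited line, with the genotype label wild type. VPAC2KO 1E7 is a clone whose label names it a VPAC2 knockout. VPAC2, the product of Vipr2, is a receptor that binds vasoactive intestinal peptide. CRISPR 1G2 is a clone from the same editing, labelled CRISPR-wild type, while the design text counts both clones among the knockout cells. Each edited group is 1 clone, so an effect of the edit and the features of the clone cannot be told apart. The study asked what VPAC2 does in pancreatic cancer growth and compared parental cells with edited ones.

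Simple keratins form filaments from obligate pairs of a type II chain, here Krt7 or Krt8, with a type I chain, here Krt18 or Krt19, and they are the characteristic keratins of glandular and duct epithelium. Claudin-7 (Cldn7) and occludin (Ocln) are membrane proteins of the tight junction, E-cadherin (Cdh1) holds the adherens junction together, and Epcam is a surface glycoprotein that binds claudin-7. Esrp1 directs epithelium-specific splicing, and Ovol1 is a zinc-finger repressor of mesenchymal genes. Zinc-finger repressors of the Zeb and Snail families, which silence epithelial genes when cells become mesenchymal, bind the E-box CAGGTG.

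To show what the starts of these genes hold, the 250 bases before each RefSeq transcription start (build GRCm38.p6) were searched for CAGGTG on both strands. Windows were found for 6 of the 10 genes, in 8 windows because Cldn7 and Ocln have a pair of starts each, and 6 of those windows held the motif. Among all 32851 windows of that length in the table, 17.2% held it. Krt19, Esrp1, Ovol1 and Cdh1 were not in the table. The Epcam window is printed whole because it held the motif at 2 places. CAGGTG, or CACCTG where it lies on the other strand, is in capitals at 187 and 19 bases before the start. Also in capitals is ACCGGT, the core bound by grainyhead factors, at 174 and 131 bases before the start. ACCGGT was chosen after the sequence had been seen. It is present in 1.86% of all windows and at 2 or more places in 0.0274%.
Epcam, chr17:87635729-87635978, plus strand: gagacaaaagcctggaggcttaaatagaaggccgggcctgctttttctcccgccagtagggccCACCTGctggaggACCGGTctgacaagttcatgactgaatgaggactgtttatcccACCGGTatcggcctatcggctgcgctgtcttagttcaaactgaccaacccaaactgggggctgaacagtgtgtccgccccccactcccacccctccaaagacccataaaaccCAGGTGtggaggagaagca

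Matches in 4 other genes are shown by 26 bases around each, with the match in capitals, since their windows overlap annotated exons. The sites lie at these places, with the distance of the match from the start after each position.
Krt7, chr15:101412349-101412374, plus strand, 44 bases before the start: gccctgtcccCACCTGtgtgcgctca
Krt18, chr15:102027992-102028017, plus strand, 214 bases before the start: gggctaacacCACCTGctatcctttg
Cldn7, chr11:69965314-69965339, plus strand, 97 bases before its downstream start: tcttcctcttCACCTGgacgaggagg
Cldn7, chr11:69965354-69965379, plus strand, 57 bases before its downstream start: acttccggttCAGGTGagtgtccctt
Ocln, chr13:100552696-100552721, minus strand, 213 bases before its downstream start: atcggagtttCAGGTGaatgggtcac
Ocln, chr13:100552551-100552576, minus strand, 68 bases before its downstream start: aggggctcggCAGGTGggtcccagcg
The match is present in Krt18, which did not pass the test in any comparison, as well as in Krt7 and Cldn7, which did. A match is a run of letters and does not show that a factor was bound.

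Gene counts ranged from 27898705 to 51878289 per library. Levels are given as CPM, in which counts are scaled to a common library size after adjustment by TMM, a trimmed mean of log ratios between libraries. Levels of different genes are compared only as RPKM, which is CPM per kilobase of the deposited exon length. The targeted gene Vipr2 had 6, 3 and 12 counts in the parental libraries, 1, 2 and 1 in 1E7 and 1, 13 and 12 in 1G2, too few to check the labels by expression (edgeR adjusted p = 0.155 for 1E7 and 0.955 for 1G2 against parental). The labels do not tie the libraries of a group to separate cultures, and p-values therefore measure only the spread between these libraries, part of which may be technical. The duct label was checked against 12 duct markers. Spp1, Sox9 and Krt19 were present in every library, whereas Cftr had 6 counts and Onecut1 2 counts over all 9 libraries. The duct marker Car2, a carbonic anhydrase, fell in 1E7, from 2.24, 1.77 and 3.53 CPM in parental cells to 0.0848, 0.322 and 0.0597. Its log2 fold change was -3.89 ± 0.59 against parental (adjusted p = 0.0149) and -4.43 ± 0.60 against 1G2 (adjusted p = 0.00450).

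Some libraries stand apart from others of their group. Parental 3 and 1G2 3 had the highest Mdm2 (1857 and 3910 CPM, against 646 to 1173 elsewhere) and the highest Cdkn1a (189 and 480 CPM, against 31.8 to 72.9), both of them p53 target genes. In parental 3, ribosomal RNA-related genes summed to 190860 CPM, against 5438 to 11509.5 in the other libraries. Their deposited columns, and that of 1E7 3, carry the word NSG, which the labels do not explain. The library 1E7 2 differed from 1E7 1 and 1E7 3 in Igf2, with 80.7 CPM against 5.54 and 2.81, while the 1G2 and parental libraries had 189 to 344. The part of these differences in the results below was not tested, and values without these libraries are given beside the results.

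Among the keratins, Krt8 and Krt18 made up most of the transcript in every library, and it was Krt7 that differed between the groups. Krt8 (chr15:101996711-102004342, minus strand, ENSMUSG00000049382) encodes the main type II chain. It measured 919, 978 and 424 CPM in parental libraries 1, 2 and 3, 723, 1033 and 710.2 in 1E7, and 793, 937 and 248 in 1G2. The groups overlapped, and the lowest values were those of parental 3 and 1G2 3. The log2 fold change was 0.09 ± 0.47 (SE) for 1E7 against parental and -0.23 ± 0.47 for 1G2 against parental. Reads shared with the processed pseudogene Krt8-ps cannot be assigned with certainty, although only 20 to 114 counts per library were listed for it.

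Krt18 (chr15:102028216-102032026, plus strand, ENSMUSG00000023043) encodes the type I partner of Krt8 and lies beside it on the chromosome. It measured 716, 696 and 585 CPM in the parental line, 380.4, 664 and 376 in 1E7 and 693, 697 and 333 in 1G2. Libraries 1E7 1, 1E7 3 and 1G2 3 were the 3 lowest, and 1E7 2 lay between parental 2 and parental 3. Its log2 fold change was -0.49 ± 0.32 for 1E7 and -0.21 ± 0.32 for 1G2 against parental, neither past the test (edgeR quasi-likelihood test with Benjamini-Hochberg adjustment, adjusted p = 0.389 and 0.955).

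Krt19 (chr11:100140810-100148665, minus strand, ENSMUSG00000020911) encodes the smallest type I keratin, a common marker of pancreatic ducts. The parental libraries had 139, 172 and 84.5 CPM, 1E7 had 50.0, 182 and 56.1, and 1G2 had 179.8, 242 and 97.5. Within 1E7 the second library stood 3.43 times above the mean of the other two, a wider ratio than that of any 2 group means. The log2 fold change was -0.46 ± 0.54 in 1E7 and 0.39 ± 0.54 in 1G2 against parental.

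Krt7 (chr15:101411043-101430313, plus strand, ENSMUSG00000023039), the second type II keratin of ducts, fell in 1E7. It measured 29.3, 30.5 and 17.7 CPM in the parental line, 4.01, 4.41 and 5.31 in 1E7, and 67.2, 48.0 and 13.7 in 1G2. All 3 libraries of 1E7 lay below all others, and the second library of 1E7 did not stand out. Krt7 fell by 2.5 ± 0.51 on the log2 scale against parental (adjusted p = 0.0323), and its log2 fold change against 1G2 was -3.23 ± 0.53 (adjusted p = 0.00759). Between 1G2 and parental the difference was 0.73 ± 0.48 (adjusted p = 0.818), and 1G2 3 was below every parental library.

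**Figure D1:**
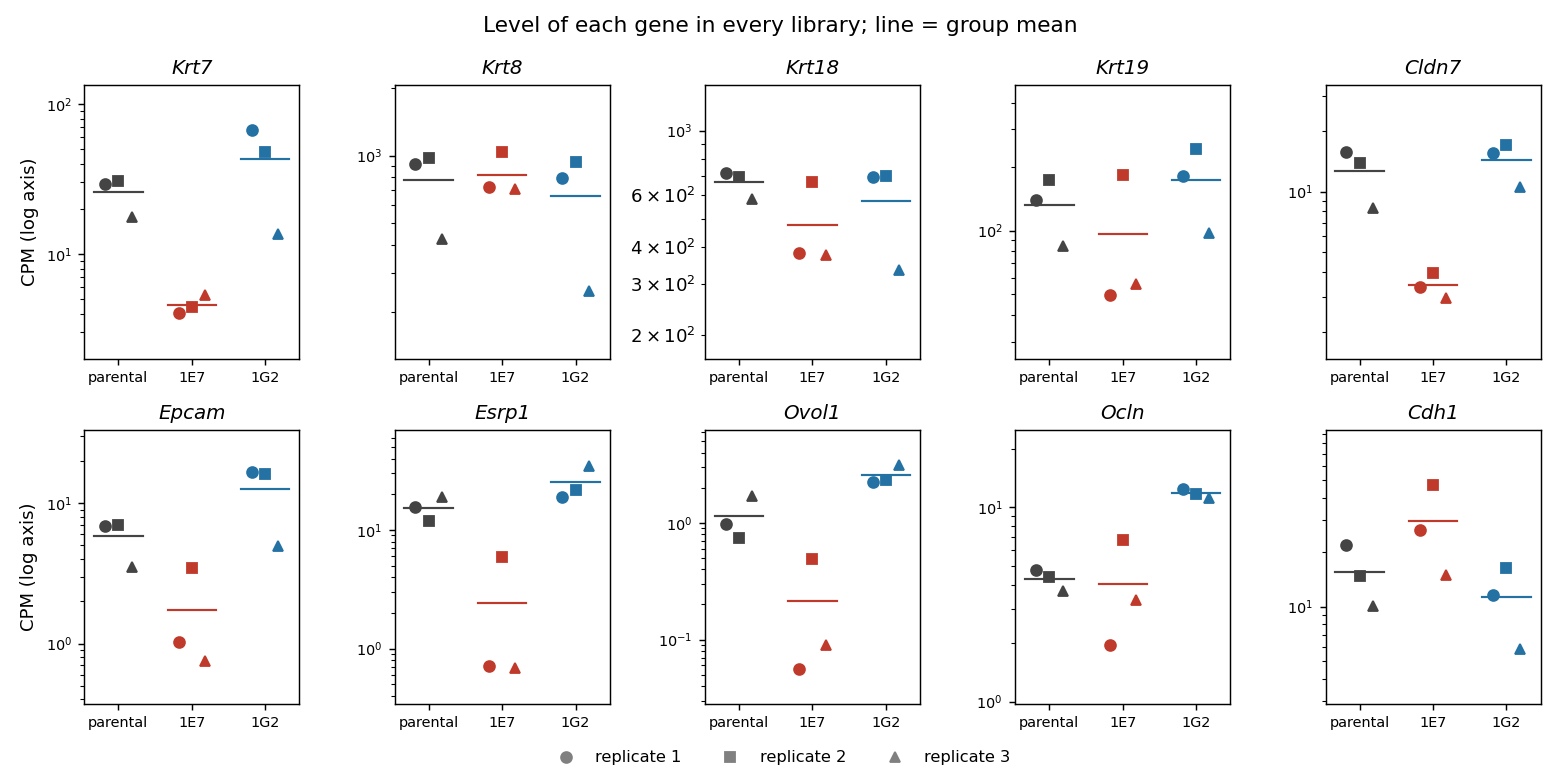
Level of each of the 10 genes in CPM on a log axis, with 1 panel per gene, 1 point per library, the point shape giving the replicate number and the line the group mean. Krt7 and Cldn7 in 1E7 lie below all other libraries with little spread, whereas Esrp1, Ovol1, Epcam and Ocln are spread widely within 1E7 because library 2 is the highest.

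Per length, the balance among the keratins differed between the clones as well. The mean levels were 429 RPKM for Krt8, 475 for Krt18, 71.1 for Krt19 and 3.67 for Krt7 in the parental line. Together Krt8 and Krt18 gave 87.3% to 96.1% of the summed RPKM of the 4 genes. The deposited length of Krt7 is 7055 bases against 1805 for Krt8, and a level per length depends on that annotated length.

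The Krt8 to Krt18 ratio in RPKM was 0.996, 1.09 and 0.563 in the parental libraries, 1.47, 1.21 and 1.46 in 1E7 and 0.888, 1.04 and 0.579 in 1G2. Every 1E7 library was above every other library, and the 2 lowest were parental 3 and 1G2 3. As a share of Krt7 plus Krt8, Krt7 made up 0.810%, 0.792% and 1.06% in parental cells, 0.142%, 0.109% and 0.191% in 1E7 and 2.12%, 1.29% and 1.39% in 1G2. In this share the 3 groups did not overlap, including 1G2 3, so the low Krt7 of that library went with low Krt8. Krt19 made up 12.8%, 15.8% and 9.82% of the type I total in parental cells, 9.02%, 17.1% and 10.1% in 1E7 and 16.4%, 20.8% and 18.1% in 1G2. No test of these ratios was made.

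**Figure D2:**
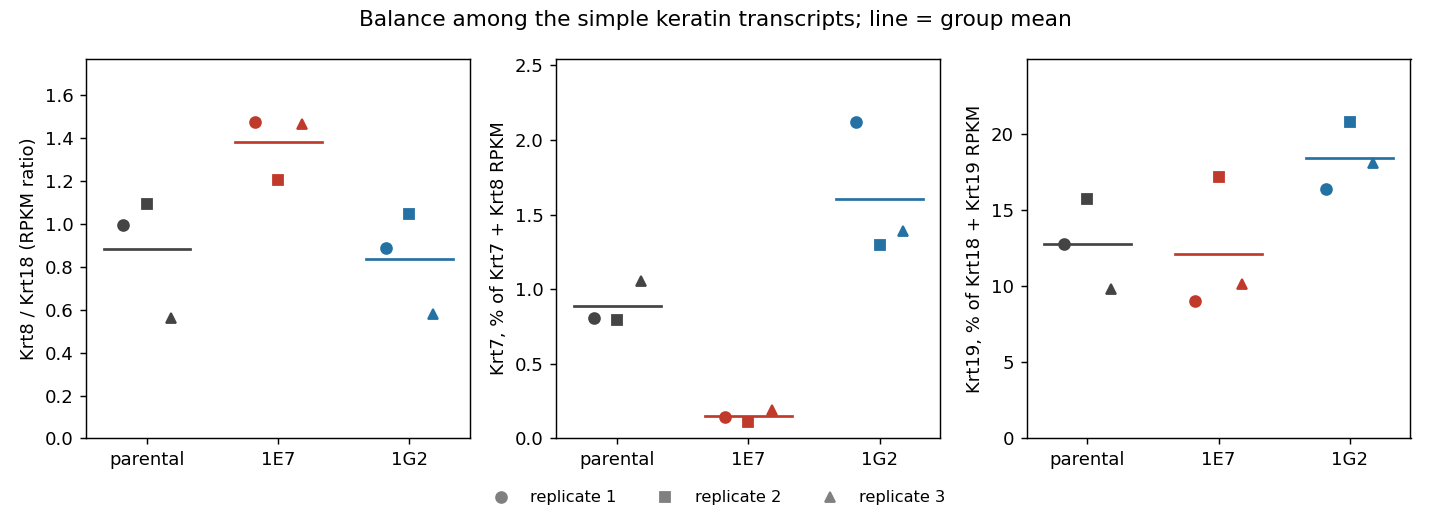
Balance of keratin transcripts per length, with 1 point per library and the group mean as a line: the Krt8 to Krt18 ratio, Krt7 as a percentage of Krt7 plus Krt8, and Krt19 as a percentage of Krt18 plus Krt19. The 1E7 libraries lie at 1.21 to 1.47 in the first panel and at 0.109% to 0.191% in the second, apart from all others in both.

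The junction genes did not move as a block. Cldn7 fell in 1E7, Ocln was highest in 1G2 and unremarkable in 1E7, and Cdh1 had its highest mean in 1E7.

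Cldn7 (chr11:69964779-69967885, plus strand, ENSMUSG00000018569) encodes claudin-7, which seals the space between neighbouring cells and also sits on the lateral membrane. It measured 15.7, 13.9 and 8.31 CPM in the parental libraries, 3.36, 3.92 and 2.95 in 1E7, and 15.7, 17.0 and 10.6 in 1G2. The 1E7 libraries lay below all others and within 1.33 times of each other. Cldn7 fell by 1.89 ± 0.29 on the log2 scale against parental (adjusted p = 0.0156). Its log2 fold change against 1G2 was -2.07 ± 0.29 (adjusted p = 0.00501), while 1G2 and parental differed by 0.19 ± 0.28 (adjusted p = 0.955).

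Ocln (chr13:100496507-100552718, minus strand, ENSMUSG00000021638) encodes occludin, a membrane-spanning tight junction protein regulated by phosphorylation. The parental libraries had 4.78, 4.36 and 3.72 CPM, 1E7 had 1.95, 6.76 and 3.34, and 1G2 had 12.5, 11.8 and 11.1. The 3 libraries of 1G2 were above all others and close together, while those of 1E7 lay on both sides of the parental ones. Ocln was lower in 1E7 than in 1G2 by a log2 fold change of -1.55 ± 0.40 (adjusted p = 0.0371). For 1G2 against parental the log2 fold change was 1.46 ± 0.39, which did not pass adjustment over all genes (unadjusted p = 0.00513, edgeR adjusted p = 0.369) and did in DESeq2 (adjusted p = 0.0329). For 1E7 against parental it was -0.09 ± 0.39.

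Epcam (chr17:87635979-87651106, plus strand, ENSMUSG00000045394), the surface glycoprotein with the promoter printed above, measured 6.88, 7.04 and 3.53 CPM in parental cells, 1.02, 3.43 and 0.746 in 1E7 and 16.6, 16.0 and 4.95 in 1G2. Each 1E7 library was below each parental one, but 1E7 2 at 3.43 CPM nearly reached parental 3 at 3.53. Epcam was lower in 1E7 than in 1G2 (log2 fold change -2.83 ± 0.67, adjusted p = 0.0292). Against parental its log2 fold change of -1.73 ± 0.65 did not pass (edgeR adjusted p = 0.154). It was past the threshold in DESeq2 (-1.72, adjusted p = 0.0478), with the replicate block (-1.92, adjusted p = 0.0310) and with the term for the word NSG (-1.83, adjusted p = 0.0232). In the last 2 fits 8.23% and 13.1% of all genes passed.

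Cdh1 (chr8:106603351-106670246, plus strand, ENSMUSG00000000303) encodes E-cadherin, whose loss is the usual sign of a mesenchymal change. It measured 21.8, 14.7 and 10.1 CPM in the parental libraries, 26.6, 47.1 and 15.0 in 1E7, and 11.6, 16.3 and 5.83 in 1G2. The groups overlapped in every comparison. The log2 fold change was 0.93 ± 0.49 for 1E7 against parental (adjusted p = 0.292) and 1.40 ± 0.50 for 1E7 against 1G2 (adjusted p = 0.102). Against 1G2 it was past the threshold, as higher in 1E7, in DESeq2 (1.41, adjusted p = 0.0316). The same held in edgeR with the replicate number as a block (1.38, adjusted p = 0.0152) and with a term for the word NSG (1.39, adjusted p = 0.00865), where 16.6% and 21.1% of all genes passed. Beside it, the median log2 fold change of the 892 tested genes on chromosome 8 was 0.31 for 1E7 against parental and 0.34 against 1G2, where 9.53% and 17.5% of them passed the test. Those medians are above the -0.03 of all tested genes in either comparison, and the part of the chromosome in the value of Cdh1 was not tested.

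The regulators had the widest ranges. Esrp1 (chr4:11331933-11386783, minus strand, ENSMUSG00000040728) encodes an RNA-binding protein that selects epithelial exons. It measured 15.6, 11.9 and 18.8 CPM in the parental line, 0.707, 5.87 and 0.686 in 1E7, and 19.0, 21.7 and 34.8 in 1G2. The groups did not overlap in any comparison, and 1E7 2 was 8.43 times the mean of 1E7 1 and 1E7 3. Esrp1 was lower in 1E7 than in 1G2 (log2 fold change -3.35 ± 0.79, adjusted p = 0.0275). The value against parental, -2.64 ± 0.76, did not pass (adjusted p = 0.0794), and without 1E7 2 it was -4.46 and did (adjusted p = 0.00175).

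Ovol1 (chr19:5549137-5560575, minus strand, ENSMUSG00000024922) was the lowest of the 10 genes, with a mean of 0.449 RPKM over all libraries. It had 36, 27 and 61 counts in the parental libraries, 2, 26 and 3 in 1E7, and 61, 74 and 102 in 1G2. In CPM these were 0.984, 0.745 and 1.70, then 0.0565, 0.493 and 0.0895, then 2.22, 2.33 and 3.11. As for Esrp1, the 3 groups did not overlap and 1E7 2 was the library of its clone nearest to the parental line. Ovol1 was lower in 1E7 than in 1G2 (log2 fold change -3.48 ± 0.70, adjusted p = 0.0166). Against parental it was -2.32 ± 0.69 (adjusted p = 0.0839), and -3.90 without 1E7 2 (adjusted p = 0.0133). The antisense gene Gm31166, with 80 counts over all libraries against 392 for Ovol1, overlaps it, and counts without strand cannot tell the 2 apart. Gm26663 overlaps Esrp1 in the same way, with 21 counts against 4390.

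Counted together, 2 of the 10 genes, Krt7 and Cldn7, fell in 1E7 against parental, and none rose. Of all 15766 tested genes 5.42% passed in that comparison, 2.87% on the lower side and 2.54% on the higher. The libraries did not overlap for 5 genes, all lower in 1E7 (Krt7, Cldn7, Epcam, Esrp1 and Ovol1), where 17.3% of all genes were lower without overlap. The median log2 fold change of the 10 genes was -1.11, against -0.03 for all tested genes. DESeq2 called those same 5 genes (11.1% of the genes it tested). The call of Krt7 was lost in 6 of the 9 fits that left out 1 library, those without parental 1, parental 2, 1E7 1, 1E7 2, 1E7 3 or 1G2 2, with adjusted p up to 0.136. That of Cldn7 was lost in 3, those without parental 1, 1E7 1 or 1E7 3, with adjusted p up to 0.0933. Log2 fold changes over these fits ran from -2.70 to -2.36 for Krt7 and from -2.10 to -1.69 for Cldn7.

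In 1E7 against 1G2, edgeR called 6 of the 10 genes lower and none higher: Krt7, Cldn7, Epcam, Esrp1, Ovol1 and Ocln. DESeq2 called the same 6 lower and Cdh1 higher (15.7% of the genes it tested). In this comparison 12.7% of all tested genes passed, 7.03% on the lower side and 5.71% on the higher. The same 6 were the genes whose libraries did not overlap, as was so, on the lower side, for 19.4% of all genes. The median of the 10 was -1.81, against -0.03 for all genes. Krt7 and Cldn7 passed in all 9 fits without 1 library. Ovol1 lost its call in the 2 fits without 1E7 1 or 1E7 3 (adjusted p up to 0.0758). Epcam and Esrp1 lost theirs in the same 5 fits, without parental 1, 1E7 1, 1E7 3, 1G2 1 or 1G2 2, with adjusted p up to 0.116 for Epcam and 0.0915 for Esrp1. Ocln lost its call in 7 of the 9 fits, all but those without parental 3 or 1E7 2, with adjusted p up to 0.151. Over these fits the log2 fold change ran from -3.82 to -2.46 for Epcam, -5.16 to -2.90 for Esrp1, -5.06 to -3.06 for Ovol1 and -2.15 to -1.21 for Ocln. The lowest value of each was that without 1E7 2.

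In 1G2 against parental, edgeR called 0 of the 10 genes and DESeq2 called 1 (Ocln). By edgeR 1 (Ocln) had an unadjusted p below 0.05, where 1218 of all 15766 tested genes did. Only 0.254% of all tested genes passed there by edgeR, all of them lower, and 0.841% by DESeq2. The libraries did not overlap for Esrp1, Ovol1 and Ocln, all higher in 1G2, where 6.64% of all genes were higher without overlap. The largest log2 fold changes were those of Ocln, Ovol1 (1.16 ± 0.63) and Epcam (1.10 ± 0.63). Both clones were set against the same parental libraries, so these values and those of 1E7 are not independent. In the test for any difference among the 3 groups, Cldn7, Krt7, Ovol1 and Ocln passed (adjusted p = 0.0107, 0.0190, 0.0398 and 0.0497), where 8.54% of all tested genes did. With the replicate block 6 of the 10 passed that test (11.5% of all genes), and with the term for the word NSG 7 did (17% of all genes).

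**Figure D3:**
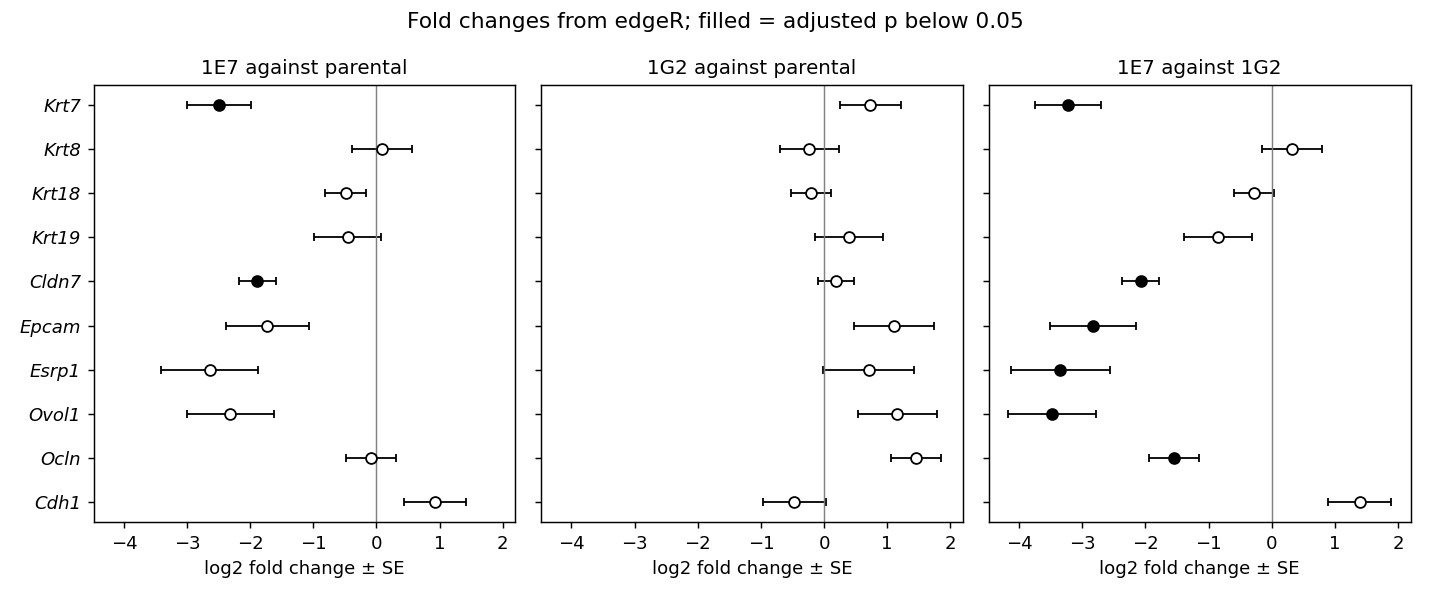
Log2 fold change ± SE from edgeR for the 10 genes in the 3 comparisons, filled where the adjusted p was below 0.05. In 1E7 against parental 2 points are filled, in 1G2 against parental none, and in 1E7 against 1G2 6, all on the lower side.

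Leaving out parental 3 and 1G2 3, or the third library of each group, left Krt7 and Cldn7 called in 1E7 against parental, whereas leaving out 1E7 2 ended the call of Krt7. Without parental 3 and 1G2 3, a choice made after the values were seen, Krt7 fell by 2.71 (adjusted p = 0.000388) and Cldn7 fell by 2.11 (adjusted p = 0.000862) on the log2 scale, where 21% of all genes passed. Against 1G2 the same choice left all but Esrp1 of the 6 genes called (Esrp1 -3.0, adjusted p = 0.0525), where 29.1% of all genes passed. Without the third library of each group, they fell by 2.81 and 2.01 (adjusted p = 0.00253 and 0.00578, where 11% of all genes passed). In that reduced set Cdh1 was higher in 1E7 than in 1G2 by 1.42 (adjusted p = 0.0378), while Esrp1 and Ocln no longer passed (adjusted p = 0.0756 and 0.106), where 19.8% of all genes passed. Without 1E7 2, the genes called against parental were Cldn7, Esrp1 and Ovol1, where 3.62% of all genes passed. In the same fit all 6 genes passed against 1G2, where 8.66% of all genes did.

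The pairs of a 1E7 and a parental library whose columns share a word or a date both had lower Krt7, Cldn7, Epcam and Esrp1 in 1E7. Between 1E7 3 and parental 3, both with the word NSG, the log2 ratio of CPM was -1.74 for Krt7, -1.49 for Cldn7, -2.24 for Epcam and -4.78 for Esrp1. Between 1E7 1 and parental 1, which share a date, it was -2.87, -2.23, -2.76 and -4.46. For Ocln, 1G2 3 stood 1.58 above parental 3 and 1G2 1 stood 1.52 above parental 2, the other pair with a common date. Each pair is 1 library against 1 and carries no test. The Krt8 ratio of 1E7 to parental was 0.74 in the NSG pair and -0.35 in the dated pair, of opposite sign.

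The libraries within a group moved in 2 patterns. In 1E7, library 2 was the highest for 9 of the 10 genes, all but Krt7, where it was the highest for 37.8% of all tested genes. Its level over the mean of 1E7 1 and 1E7 3 was 8.43 for Esrp1, 6.75 for Ovol1, 3.89 for Epcam, 2.56 for Ocln and 2.26 for Cdh1, but 1.24 for Cldn7 and 0.947 for Krt7. In the other groups, parental 3 and 1G2 3 were both the lowest for 8 genes, and both the highest for Esrp1 and Ovol1. Of all tested genes 33.3% were lowest and 31.2% highest in both. Esrp1 and Ovol1 went against the keratin and junction genes in the libraries with high Mdm2 and Cdkn1a.

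**Figure D4:**
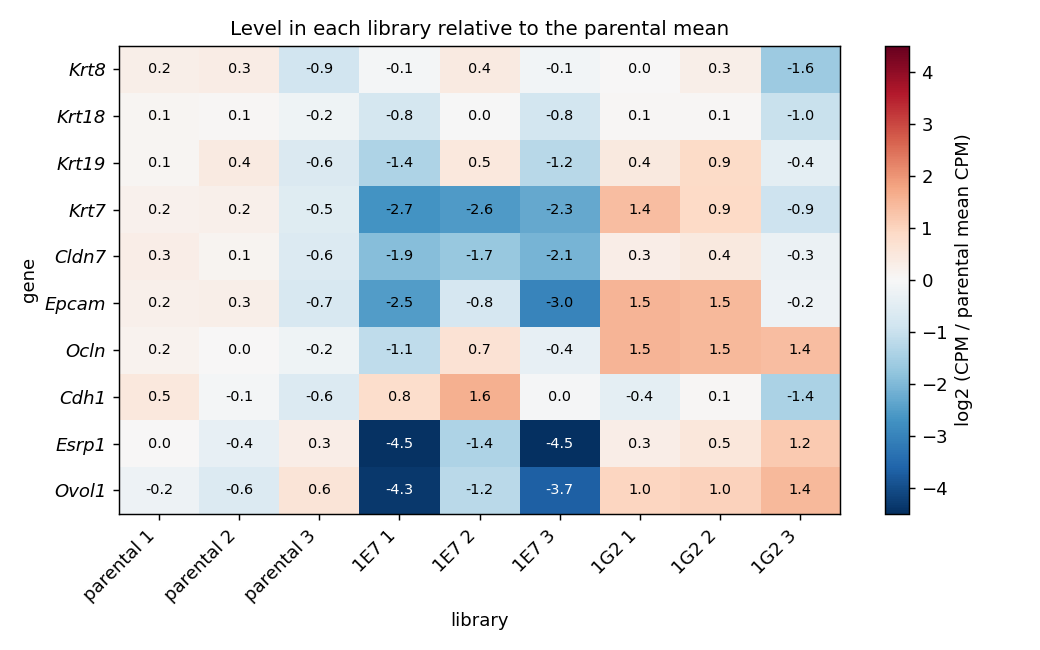
Log2 of each library's CPM over the parental mean for the 10 genes, in colour with the value in each cell, with genes as rows and libraries as columns. Esrp1 and Ovol1 stand at -4.5 to -3.7 in 1E7 1 and 1E7 3 and at -1.4 and -1.2 in 1E7 2, while Krt7 stands at -2.7 to -2.3 in all 3.

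Across the 9 libraries the 2 regulators were the most alike pair, with a Pearson correlation of log2 CPM of 0.979, and of 0.954 once each group's mean was removed. Krt7 and Cldn7 came next at 0.952 (0.712 within groups), then Cldn7 and Epcam at 0.920 (0.819 within groups). The highest correlation within groups was that of Krt18 and Epcam, at 0.963 (0.707 over all libraries). Cdh1 was most unlike Ovol1 at -0.566. Within groups, however, Cdh1 followed Epcam at 0.921 and Cldn7 at 0.863, although over all libraries those correlations were -0.238 and -0.434. Krt8 and Cldn7 had 0.019 over all libraries and 0.919 within groups. These are descriptions of 9 points that share clones, depth and library features.

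Outside the 10 genes, the patterns nearest to each were found among all tested genes by the same correlation. For Krt7 they were Gm26694, Mrps2 and Capns1 (0.976 to 0.984), and for Cldn7 they were Hvcn1, Ube2m and U2af2 (0.990 to 0.992). Esrp1 was followed by Zfp110, Tigd2 and Ggt1 (0.992 to 0.995) and Ovol1 by Tnk1, Cadm4 and Aff2 (0.989 to 0.994). Krt19 was most like Pkp1 (0.979), which encodes the desmosomal protein plakophilin-1, then Sowahc and Anln. Epcam was most like Cib2, Pnma5 and Ly6a (0.986 to 0.991), Ocln like 3830403N18Rik, Epb41l2 and Shroom4 (0.958 to 0.973), and Cdh1 like Gm5432, Rsrp1 and Gm19589 (0.950 to 0.958). Krt8 was nearest to Gcnt4, Cog7 and Pacs1 (0.986 to 0.987) and Krt18 to Rbpms2, Atp2b1 and Plscr3 (0.970 to 0.978).

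Partner genes of the same structures were read from lists. Of 21 tested tight junction partners, 0 passed in 1E7 against parental by edgeR with all libraries. At an unadjusted p below 0.05 there were 4, where 3735 of all 15766 tested genes were. DESeq2 called 3 lower (Cldn23, Pard6b and Tjp1), where 11.1% of the genes it tested passed. The median log2 fold change was -0.28. In 1E7 against 1G2, 3 were lower, where 7.03% of all tested genes were. They were the scaffold Tjp1 (-0.82 ± 0.18), the tricellular junction receptor Lsr (-0.82 ± 0.14) and the polarity gene Pard6b (-0.97 ± 0.23). The channel-forming claudin Cldn2 was higher by 4.20 ± 0.81. It measured 52.9, 62.0 and 8.62 CPM in parental cells, 81.0, 44.8 and 37.7 in 1E7 and 3.20, 4.70 and 0.977 in 1G2, so the difference lay in the low level of 1G2. The most abundant partner per length was F11r at a mean of 45.7 RPKM, and it passed in no comparison, nor did the claudin Cldn12, the next at 26.8 RPKM. Without parental 3 and 1G2 3, 5 of these partners were lower and 3 higher in 1E7 against 1G2, where 29.1% of all genes passed. Against parental the same choice gave 2 higher (Cgn and Mpp5) and 1 lower (Pard6b), where 21% passed. Without 1E7 2, Tjp1 was lower against parental, where 3.62% passed. Against 1G2 that fit called Cldn2 higher and Cldn6, Lsr and Tjp1 lower, where 8.66% passed. With all libraries DESeq2 added Cldn6 and Cldn23 as lower against 1G2, where 15.7% of the genes it tested passed.

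Of 15 tested adherens junction and desmosome partners, 1 fell in 1E7 against parental by edgeR, the p53-responsive desmosomal gene Perp (-1.57 ± 0.34, adjusted p = 0.0369). DESeq2 called 4 lower there (Perp, Nectin1, Nectin2 and Pkp2) and 1, Vcl, higher, where 11.1% of the genes it tested passed. In 1E7 against 1G2, 6 were lower and 0 higher, where 7.03% and 5.71% of all tested genes were. The 6 were Nectin1 (-3.32), Perp (-2.21), Pkp2 (-1.66), Pkp3 (-1.56), Plekha7 (-1.27) and Nectin2 (-0.86). The list's median there was -0.86. Nectin1, a cell adhesion molecule of the adherens junction, measured 0.283, 2.58 and 0.0895 CPM in 1E7, again with the second library highest. Without 1E7 2, the genes of this list that fell against parental were Nectin1 and Pkp2, where 3.62% of all genes passed. The catenin Ctnnb1 had 641, 862 and 359 CPM in parental cells and 815, 748 and 655 in 1E7 and passed in no comparison. The same was so of Ctnna1, the next most abundant per length, at a mean of 108 RPKM. Vcl, at 40.6 RPKM, passed in no comparison by edgeR with all libraries. It was higher in 1E7 against parental by edgeR without the third library of each group (11% of all genes passed). The same held without parental 3 and 1G2 3 (21% of all genes passed).

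Of 13 tested keratin and plakin partners, only Krt15, a type I keratin of stratified epithelium, passed by edgeR with all libraries. It rose in 1E7, from 1.48, 1.88 and 2.14 CPM in parental cells to 11.2, 15.9 and 20.9, with a log2 fold change of 3.12 ± 0.38 against parental (adjusted p = 0.00881) and 3.03 ± 0.38 against 1G2. The direction was opposite to that of Krt7. DESeq2 also called Krt20 lower in 1E7 against parental, and Krt5, Krt20 and Krt80 lower in 1E7 against 1G2. In those comparisons 11.1% and 15.7% of the genes it tested passed. Krt5 and Krt20 had only 53 and 38 counts over all libraries. The most abundant of the list, vimentin (Vim), the mesenchymal intermediate filament, averaged 345 RPKM beside 417 for Krt8. Its log2 fold change in 1E7 against parental was -0.37 ± 0.64. Krt80 at 24.4 RPKM and the plakin Plec at 18.8 were next in level. Without parental 3 and 1G2 3, edgeR also called Plec lower in 1E7 against 1G2, where 29.1% of all genes passed. Without 1E7 2 it called Evpl of this list lower in that comparison, beside Krt15, where 8.66% of all genes passed.

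**Figure D5:**
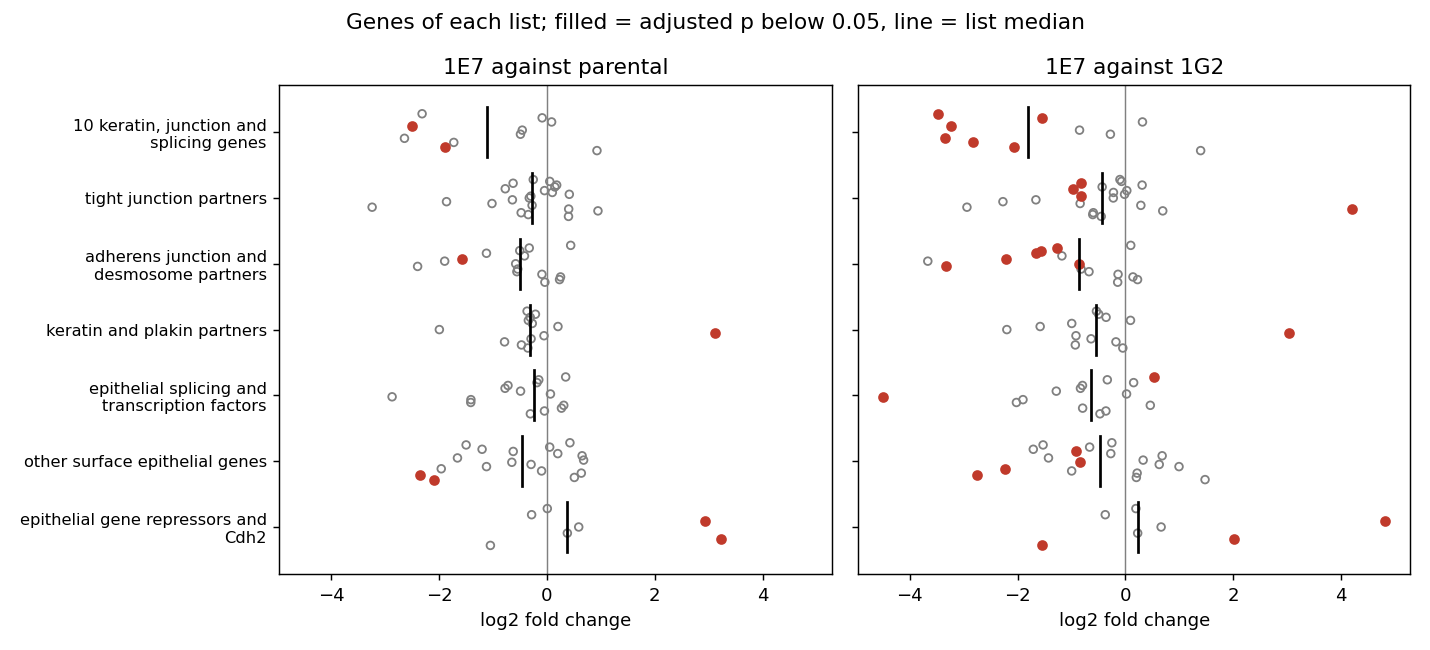
Log2 fold change of each tested gene in the 10-gene set and in 6 lists of related genes, in 1E7 against parental and in 1E7 against 1G2, with a filled point where the edgeR adjusted p was below 0.05 and a line at the list median. Krt15, Prrx1 and Twist2 are the filled points on the higher side in both panels, and most filled points among junction genes are on the lower side against 1G2.

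Of 14 tested epithelial splicing and transcription factors, 0 passed in 1E7 against parental by edgeR with all libraries. At an unadjusted p below 0.05 there were 3, where 3735 of all 15766 tested genes were. DESeq2 called 1, Tfap2a, where 11.1% of the genes it tested passed. Tfap2a was also called higher there by edgeR without the third library of each group (11% of all genes passed). The same held without parental 3 and 1G2 3 (21% of all genes passed). Esrp2, the paralogue that shares its splicing targets with Esrp1, measured 16.6, 16.3 and 18.5 CPM in parental cells, 22.3, 14.2 and 13.3 in 1E7 and 20.3, 21.2 and 22.6 in 1G2. The log2 fold change of Esrp2 was -0.05 ± 0.20 in 1E7 against parental, beside -2.64 for Esrp1. Ovol2, the paralogue of Ovol1, had 0 counts. Against 1G2, Tfap2a was higher by 0.53 ± 0.12, and the grainyhead factor Grhl3, at 0.0189 to 2.05 CPM, had a log2 fold change of -4.50 ± 1.17. The most abundant per length were Klf5, Klf4 and Rbfox2 at means of 34.3, 32.4 and 19.2 RPKM, and none of these passed by edgeR in any comparison. Without 1E7 2, 0 of the list passed by edgeR in either comparison of 1E7.

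Of 18 other surface epithelial genes tested, 2 fell in 1E7 against parental, Cdcp1 (-2.36 ± 0.34) and Bspry (-2.09 ± 0.42). Of all tested genes 2.87% were lower there. Cdcp1 measured 49.9, 40.6 and 57.1 CPM in parental cells, 5.34, 15.0 and 8.24 in 1E7 and 60.0, 62.1 and 71.1 in 1G2. Bspry also fell in 1G2 (-3.57 ± 0.47, adjusted p = 0.0232). Against 1G2, 4 were lower in 1E7, where 7.03% of all tested genes were. Among the 4 were Cdcp1, the lectin Lgals4 and the protease inhibitor Spint2 with its protease partner Prss8. Per length, Cd24a and Sdc1 were the most abundant, at means of 79.1 and 55.4 RPKM, and passed in no comparison by edgeR with all libraries. Without parental 3 and 1G2 3, 6 of these genes were lower and 1, Ddr1, higher in 1E7 against parental, where 21% of all genes passed. Without 1E7 2, Cdcp1 alone was lower against parental, where 3.62% of all genes passed. In the same fit Sdc1 passed in 1E7 against 1G2, where 8.66% of all genes passed.

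Of 7 tested genes in a list of epithelial gene repressors plus the mesenchymal cadherin Cdh2, 2 rose in 1E7 against parental. Of all tested genes 2.54% were higher there. Both genes encode transcription factors of mesenchyme. Twist2 went from 0.273, 0.359 and 0.473 CPM to 1.95, 3.69 and 2.84 (log2 fold change 2.93 ± 0.43), and Prrx1 from 0.0546, 0.138 and 0.111 to 0.707, 1.31 and 0.895. Both were also higher than in 1G2 (by 2.01 ± 0.41 for Prrx1), and Cdh2 was lower in 1E7 than in 1G2 (-1.55 ± 0.41). Of all tested genes 5.71% were higher and 7.03% lower in that comparison. Without 1E7 2, only Twist2 of the list passed against 1G2, where 8.66% of all genes did. The repressors that bind CAGGTG did not pass in 1E7 against parental, with log2 fold changes of -0.28 ± 0.23 for Zeb1, 0.01 ± 0.35 for Zeb2 and 0.38 ± 0.21 for Snai1. Zeb1, Zeb2 and Snai1 did not pass against 1G2 with all libraries. Without parental 3 and 1G2 3, Zeb2 was called higher in 1E7 against 1G2, where 29.1% of all genes passed. Tcf4, another E-box factor, followed Snai1 and Zeb2 in level per length at a mean of 3.48 RPKM and passed in no comparison by edgeR.

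Markers of other cells were read beside these genes, since in bulk RNA fewer expressing cells and less RNA per cell cannot be told apart. The 10 endothelial markers summed to at most 5.04 CPM in any library and the 7 erythroid markers found to at most 1.95. The 9 acinar markers found summed to 7.39 to 13.4 CPM in 1E7, 2.35 to 2.87 in parental and 1.34 to 2.27 in 1G2. Nearly all of that was Cela1, which rose in 1E7 (log2 fold change 2.23 ± 0.35 against parental, adjusted p = 0.0165), and Cela2a, Prss1 and Ptf1a had 0 counts. The 10 immune markers summed to 57.6 to 65.9 CPM in 1E7, 31.1 to 57.2 in parental and 54.0 to 91.3 in 1G2. Cd14 was the largest part, at 20.1 to 62.4 CPM. Lyz2 measured 12.4, 0.525 and 2.39 CPM in parental cells, 14.7, 13.2 and 13.5 in 1E7 and 18.8, 10.6 and 14.2 in 1G2. Ptprc was likewise low in parental 2 and parental 3, at 0.0276 and 0.0834 CPM, against 1.97 in parental 1. Cd68 was not, at 2.65 and 7.92 CPM against 4.54. With all libraries no immune marker passed in any comparison by edgeR (8 tested) or DESeq2 (8 or 9 tested). At an unadjusted p below 0.05 there was 1 in 1E7 against parental by either tool and 3 in 1G2 against parental by DESeq2. Of all tested genes, 3735 of 15766 by edgeR and 4187 of 18283 by DESeq2 were below it in 1E7 against parental. In 1G2 against parental, 1537 of 20687 were by DESeq2. By edgeR without the third library of each group, Cd14 was lower in 1E7 against 1G2 (19.8% of all genes passed). The same held without parental 3 and 1G2 3 (29.1% of all genes passed). The fibroblast markers summed to 70.1 to 143 CPM in 1E7, 71.9 to 86.6 in parental and 43.8 to 81.2 in 1G2. Of the 4 tested, none passed in 1E7 against parental with all libraries (0 at an unadjusted p below 0.05, and 0 by DESeq2). Without parental 3 and 1G2 3, Pdgfra was higher there by edgeR (21% of all genes passed). In 1E7 against 1G2, the receptor gene Pdgfrb was higher (1.83 ± 0.32, adjusted p = 0.0106) and the collagen gene Col1a1 lower (-1.59 ± 0.43, adjusted p = 0.0449). Pdgfrb measured 58.5, 67.2 and 45.6 CPM in parental cells, 110, 47.8 and 93.9 in 1E7 and 18.2, 22.9 and 29.8 in 1G2. DESeq2 called Pdgfrb lower in 1G2 against parental (0.841% of the genes it tested passed). Col1a1 lost its call without 1E7 2 (8.66% of all genes passed) and without parental 3 and 1G2 3 (29.1%). The part of all these cell markers in the results was not tested.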

How the data were processed

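Poly(A) RNA was sequenced in 9 libraries, prepared, per the labels' protocols, with NEBNext Ultra II reagents, which keep no strand information. The submitters' processing notes name bcl2fastq 2.17 for demultiplexing, STAR 2.5.2b for alignment, Subread 1.5.2 (featureCounts) for counting and the build GRCm38. Neither the annotation release nor the strand setting is given in the sources used here. Values were deposited by the authors as raw counts per gene, not normalized. The series table and the sample tables differed in 0 cells, and groups came from the titles and genotype labels. The 92 spike-in controls (0.344% to 0.82% of counts) were left out.

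The 15766 genes that passed filterByExpr, all 10 genes among them, were tested in R 4.3.3 with the robust quasi-likelihood F-test of edgeR 4.0.16, TMM scaling and all 9 libraries in 1 fit. P-values were adjusted over all tested genes in each of 3 comparisons and called at 0.05. An SE is the log2 fold change divided by the root of F. Likeness used log2 CPM with a prior count of 2. Named were all 10 genes, of each partner list the called genes (at most 6 by adjusted p) and the 3 most abundant per length, and the 3 nearest patterns, beside genes singled out after their values were seen. For 1G2 against parental every same-numbered pair of libraries deviated together (correlations of 0.243 to 0.647). However, 1G2 1 was nearer to parental 2, of the same date, at 0.54, so the numbers do not clearly pair the samples. With the replicate block the number of the 10 genes called there stayed at 0. Alternatives were DESeq2 1.42.0, RLE scaling, no expression filter, fewer libraries, a replicate block and a term for the word NSG. The genes and lists were chosen with earlier results of these data known. The fit was tested on simulated data. One matched site and one duct marker are not reported here.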

Additional observations from a re-analysis of the deposited data

Results flagged for a closer look

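The effects of the clones against the shared parental libraries differed for 6 of the 10 genes, by the edgeR contrast of 1E7 with 1G2, which is the difference between those effects. The log2 difference was -3.23 for Krt7, -2.07 for Cldn7, -2.83 for Epcam, -3.35 for Esrp1, -3.48 for Ovol1 and -1.55 for Ocln. All 3 libraries of 1E7 were below all 3 of 1G2 for each of them. For Ocln the 1E7 libraries lay on both sides of the parental ones and the 1G2 libraries above them, whereas for Cldn7 the 1G2 libraries overlapped the parental ones and the 1E7 libraries lay below. Groups of 3 libraries were not tested for single outlying samples.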

How the results depend on the processing

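In 1E7 against parental, 2 of the 10 genes were called. Without an expression filter it was 1 (Cldn7), where 1.76% of all tested genes passed, and in DESeq2 5 (11.1%). It was 0 to 3 when each library was left out in turn, where 0.145% to 12.2% of all tested genes passed. In 1G2 against parental the count was 0 in all edgeR settings and 1 (Ocln) in DESeq2 (0.841% of the genes it tested). In 1E7 against 1G2, 6 were called (12.7% of all genes), and 4 without an expression filter (4.48%). The count was 7 in DESeq2 (15.7%) and with a term for the word NSG (21.1%), both adding Cdh1, as higher. With only those 2 groups in the fit it was 3, Krt7, Cldn7 and Ovol1 (9.99% of all genes). Over the leave-one-out fits it was 2 to 6 (2.73% to 14.4% of all genes). Among the 3 groups, 4 differed, 7 with a term for the word NSG (17% of all genes), and 0 to 5 over the leave-one-out fits (0.761% to 12.1% of all genes). The causes were not tested.

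The replicate numbers were tried as a block. In the comparisons with 1E7, the deviations of same-numbered libraries correlated at -0.05 to 0.153, so those libraries share only a number. With the replicate block 3, 0 and 7 genes were called in the 3 comparisons (8.23%, 0.235% and 16.6% of all tested genes) and 6 among the groups (11.5%). The genes gained were Epcam in 1E7 against parental, Cdh1 as higher in 1E7 against 1G2, and both among the groups.

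Of the log2 fold changes of single genes, signs changed only for 6 values that were not called. Krt8 in 1E7 against parental was -0.10 without replicate 3 of each group, -0.20 without parental 3 and 1G2 3, and -0.20 to 0.29 over the leave-one-out fits. Krt8 in 1E7 against 1G2 was -0.062 without parental 3 and 1G2 3 and -0.059 to 0.66 over the leave-one-out fits. Over those fits Ocln in 1E7 against parental ran from -0.69 to 0.25. In 1G2 against parental, Cldn7 ran from -0.046 to 0.38, Krt8 from -0.57 to 0.16 and Krt18 from -0.37 to 0.061. Depth limits Ovol1 most, with 2 and 3 counts in 1E7 1 and 1E7 3.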
